A study of Mus musculus with 30 samples.

Results

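The genes described here are those of the TGF-beta, BMP and Smad signalling family, chosen by symbol: every gene on the array whose symbol begins with Tgfb, Bmp, Smad, Acvr, Inhb, Gdf or Ltbp. There were 47 such genes among the 8251 genes measured, read by 59 probe sets, and each gene was read from the probe set with its highest mean signal. Symbols chose the genes, so some of them are no ligand, receptor or Smad by function. Bmp1 is a protease, Bmp2k a kinase, Tgfbi a matrix protein and Tgfb1i1 a focal adhesion protein. The 4 Ltbp genes encode proteins that bind latent TGF-beta. Expression was measured on 30 Affymetrix MG_U74Av2 arrays of left ventricle from C57BL/6 mice of 2 months of age. The 8 groups combined sex, a soy-based or casein-based diet, and a wild-type or HCM genotype. HCM commonly stands for hypertrophic cardiomyopathy, a thickening of the ventricular wall; the labels name no mutation, promoter or line. Wild-type males and females had 4 arrays each on soy and 4 each on casein. HCM males and females had 3 arrays each on soy and 4 each on casein. Every array held RNA pooled from 2 animals, so the spread between arrays is the spread between pools, and the number of arrays limits the precision of every value.

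Ligands of this family are secreted as dimers, and TGF-beta itself is stored in the matrix in a latent complex held by the latent TGF-beta binding proteins (the Ltbp genes). An active ligand joins type II and type I receptor kinases. TGF-beta and activin receptors phosphorylate Smad2 and Smad3, and BMP receptors phosphorylate Smad1 and Smad5; these enter the nucleus with Smad4. Smad6 and Smad7 inhibit the receptors and are themselves induced by the pathway, as are the Id genes downstream of BMP. In the heart the TGF-beta branch is best known for fibroblast activation and scar matrix, and the BMP branch for valve, vessel and muscle development.

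The genes on which the results turn include Bmp4, a BMP ligand, Smad6, an inhibitor of BMP signalling, and Bmpr1a, a BMP type I receptor. Their promoters are shown as sequence context only. RefSeq promoters (GRCm38.p6) were found for 34 of the 47 genes, in 42 windows, each running from 250 bases before the transcription start to 20 bases after it. All 3 genes lie on the minus strand, and their windows are chr9:64022040-64022309 for Smad6, chr14:46390650-46390919 for Bmp4 and chr14:34502527-34502796 for Bmpr1a. They are printed 5′ to 3′, with capitals marking a match to either of 2 motifs bound by Smad proteins, the palindrome GTCTAGAC and the GC-rich element GGCGCC.
Smad6: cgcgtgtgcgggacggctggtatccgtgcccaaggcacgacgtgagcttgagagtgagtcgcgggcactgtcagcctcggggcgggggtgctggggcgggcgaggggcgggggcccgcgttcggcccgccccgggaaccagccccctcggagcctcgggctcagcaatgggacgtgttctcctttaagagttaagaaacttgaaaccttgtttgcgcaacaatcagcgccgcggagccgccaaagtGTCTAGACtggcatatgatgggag
Bmp4: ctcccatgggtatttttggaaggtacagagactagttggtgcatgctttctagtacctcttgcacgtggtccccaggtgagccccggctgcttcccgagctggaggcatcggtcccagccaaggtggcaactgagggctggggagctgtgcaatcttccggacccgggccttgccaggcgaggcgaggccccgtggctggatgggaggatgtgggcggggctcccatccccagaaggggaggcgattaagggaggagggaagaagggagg
Bmpr1a: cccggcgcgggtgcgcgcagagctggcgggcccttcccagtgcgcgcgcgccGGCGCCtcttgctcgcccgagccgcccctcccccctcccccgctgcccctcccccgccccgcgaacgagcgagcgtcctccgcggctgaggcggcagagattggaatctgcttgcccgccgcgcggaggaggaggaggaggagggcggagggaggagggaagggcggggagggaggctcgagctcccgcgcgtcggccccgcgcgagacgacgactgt
Each motif reads the same on both strands, and the motifs do not overlap each other in these windows. GTCTAGAC stood at positions -4 to 4 around the start of Smad6, in 1 of the 42 windows, and in 0.183% of 32851 RefSeq promoter windows of the same length. GGCGCC stood at -198 to -193 in Bmpr1a and in 8 windows of 7 members (Bmp2k, Bmpr1a, Bmpr2, Ltbp4, Smad5, Tgfbi and Tgfbr1), against 10.4% of all windows. Neither string was in the Bmp4 window. A match is a description of the letters only, and no link between a motif and the expression differences was tested.

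Correlations between arrays were 0.93 to 0.997, and array medians were 6.11 to 6.22 on the log2 scale. Markers of cardiomyocytes were the brightest marker list, with 8 markers at a median of 12.6 on the log2 scale. The arrays were placed in 5 sets: soy wild type, soy HCM and casein HCM by their labels, and the casein wild-type arrays in a set A, which held replicates 1 and 2 of each sex, and a set B, which held replicates 3 and 4, by hybridization controls, RNAs added to every sample. The log2 difference of the controls BioD and BioC was 1.007 to 1.186 in set A, -0.858 to -0.657 in set B, -0.23 to 0.369 in soy wild type, 0.665 to 0.876 in casein HCM and 0.894 to 1.126 in soy HCM, where it overlapped set A. The added control RNA Dap read 7.185 to 8.073 on casein HCM arrays and 4.029 to 4.701 on all others. The second male soy wild-type array stood at the edge of its set in both, with -0.23 for BioD and BioC and 4.701 for Dap. Each HCM or diet difference is also a difference between sets, and the part of the set cannot be told apart from that of genotype or diet; the sexes are balanced within sets. A fit with the set as a random block, called set-blocked below, removed all 9 soy HCM calls of members described below and 10 of the 21 on casein. Its correlation within sets can be learned only from sets A and B, since every other set coincides with 1 diet and genotype. It widens the errors of HCM and diet differences by that correlation. A call that stays in it is therefore not shown to be free of a set difference. The casein wild-type arrays give the only view of a set difference without a change of group: between sets A and B 6 of 47 members (12.8%) differed, against 12.6% of all genes, with Bmpr2 (0.47) and Inhbe (0.33) the furthest apart on the log2 scale. Positive log2 differences below mean higher in HCM, on casein or in females, errors are standard errors from 1 limma fit of all arrays, and the threshold is a Benjamini-Hochberg adjusted p of 0.05 over all genes. In RNA from whole ventricle, fewer cells of a type and less RNA per cell cannot be told apart.

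**Figure D1:**
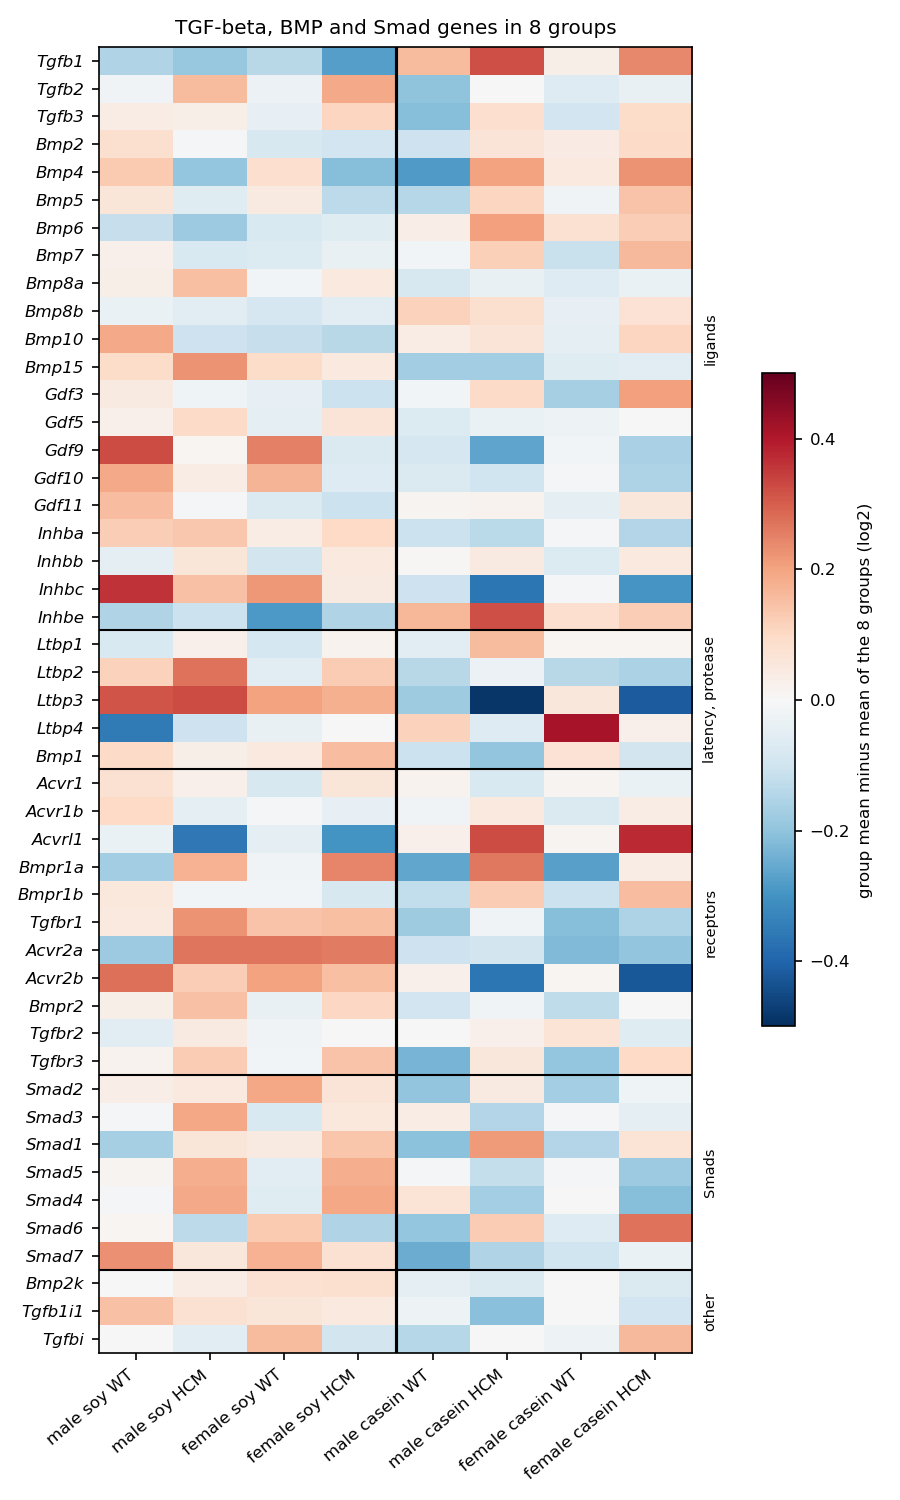
Each row is 1 of the 47 genes and each column 1 of the 8 groups; the colour gives the group mean minus the mean of the 8 groups on the log2 scale, from -0.5 (blue) to 0.5 (red). Ltbp3, Acvr2b and Inhbc are bluest in the casein HCM columns, and Acvrl1 and Tgfb1 are reddest there.

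HCM and wild-type ventricles were compared on each diet, with both sexes averaged. On soy, 9 of 47 members differed (19.1%), 4 higher and 5 lower in HCM, against 25% of all genes (12.3% higher and 12.7% lower). On casein, 21 of 47 differed (44.7%), 13 higher and 8 lower, against 49.6% of all genes (26.9% higher and 22.7% lower). Both shares lay below those of the array as a whole, so the counts are no result about the family, and the single members are described instead. The soy count was 5 in each of 3 fits that left out the third male, the first female or the third female soy HCM array. The median log2 difference of the members was 0.019 on soy and 0.082 on casein, beside -0.012 and 0.012 over all genes. The mean HCM effect over both diets passed the threshold for 11 of 47 (23.4%), 6 higher and 5 lower, against 34.1% of all genes (18.7% higher and 15.4% lower).

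The HCM differences on soy and on casein share no arrays, and they did not run together. Across the 47 members the Pearson correlation of the 2 sets of differences was -0.07, and 22 members (46.8%) had the same sign; across all genes the correlation was -0.17 and 44.1% had the same sign. These are descriptions across genes, which are not independent replicates. At the probe sets used, 5 members were past the threshold on both diets. Of these, Bmpr1a was higher in HCM on each, and 4 changed direction. Bmp4, Acvrl1 and Smad6 were lower in HCM on soy and higher on casein, and Smad5 the reverse. For Bmp4 and Acvrl1 no other probe set passed on soy. The 4 are 8.51% of the members, and such opposite calls made up 10% of all genes.

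**Figure D2:**
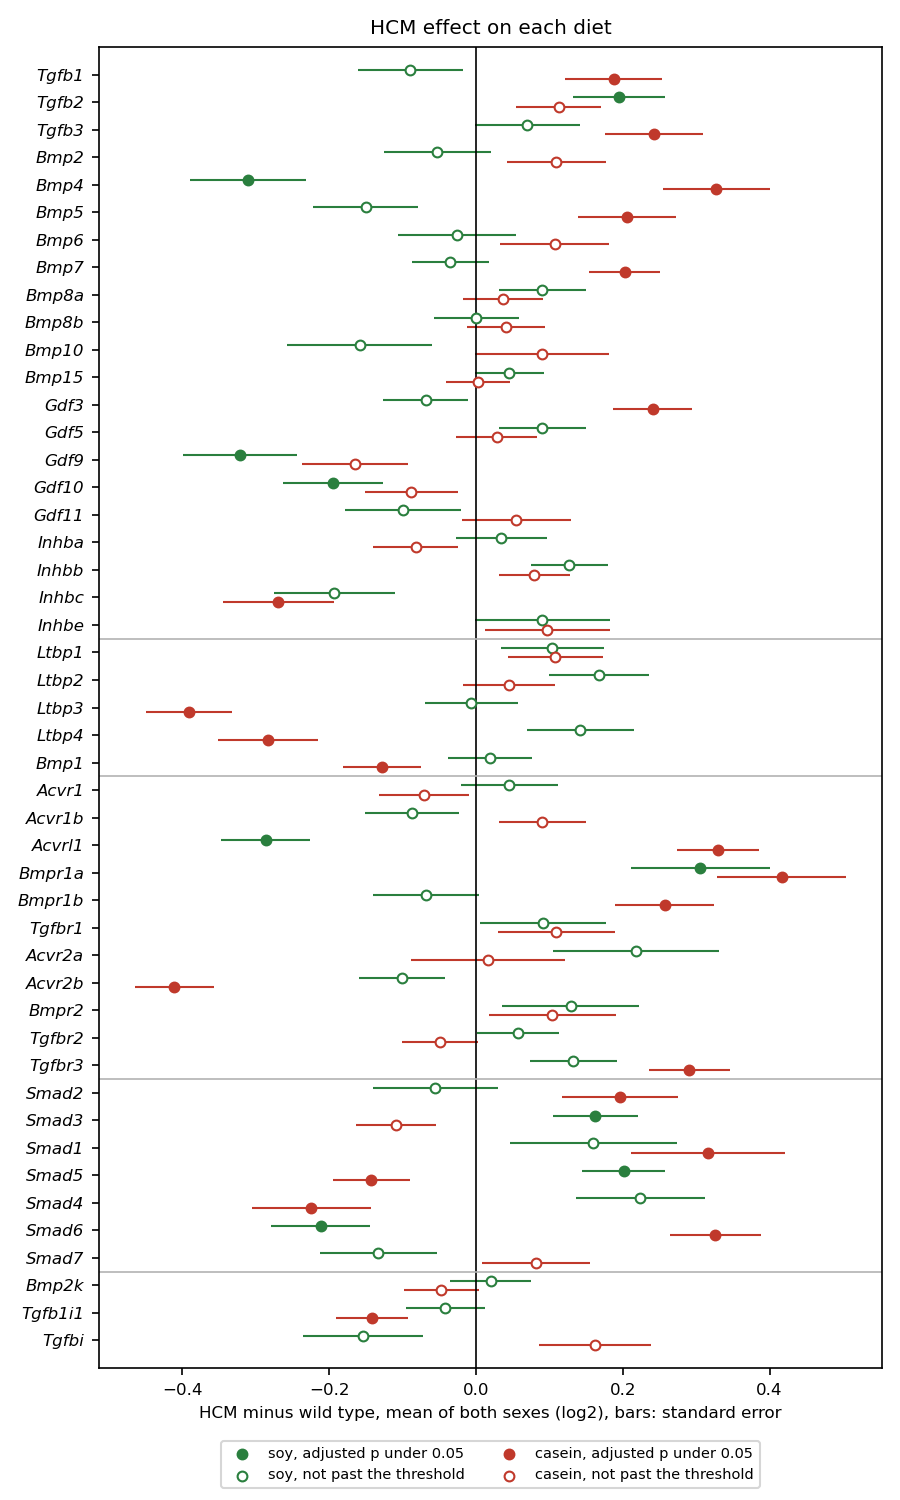
Each row is a member, with the log2 difference of HCM minus wild type on soy (green) and on casein (red); filled circles passed the threshold and bars are standard errors. Bmp4, Acvrl1 and Smad6 lie left of zero on soy and right of zero on casein, Bmpr1a lies to the right on both, and Acvr2b and Ltbp3 are far left on casein alone.

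Among the 14 BMP and GDF ligands Bmp4 differed most between the diets in its response to HCM: it was lower in HCM on soy and higher on casein. On soy, wild-type log2 values of Bmp4 were 7.13, 7.27, 7.05 and 7.08 in males and 6.98, 7.08, 7.20 and 7.09 in females. In soy HCM they were 6.89, 6.82 and 6.72 in males and 6.87, 6.75 and 6.75 in females. All 6 HCM arrays were below all 8 wild-type arrays. The difference was -0.31 ± 0.08 (adjusted p = 0.00522). On casein, wild-type values were 6.61, 6.74, 6.75 and 6.78 in males and 6.95, 6.92, 7.07 and 7.27 in females. In casein HCM they were 7.02, 7.54, 7.07 and 7.17 in males and 7.21, 7.55, 7.12 and 7.03 in females. The HCM arrays were higher, and their range overlapped that of the wild type through the females. The difference was 0.33 ± 0.07 (adjusted p = 0.000522), with 0.48 in males and 0.17 in females, where it did not pass the threshold (adjusted p = 0.204). A difference between the sexes on casein alone was not tested. Averaged over both diets, the HCM effect on Bmp4 did not pass for a difference between the sexes (adjusted p = 0.902). Between casein and soy the HCM effect on Bmp4 changed by 0.64 ± 0.11 (adjusted p = 2.41e-05). Read by diet, Bmp4 was lower on casein in wild type (-0.22 ± 0.07 (adjusted p = 0.0137)) and higher on casein in HCM (0.42 ± 0.08 (adjusted p = 4.97e-05)). A second, dim probe set of Bmp4 gave 0.26 ± 0.08 (adjusted p = 0.00724) for HCM on casein and 0.10 ± 0.09 (adjusted p = 0.404) on soy, so it followed the casein difference and not the soy one. At that probe set the change of the HCM effect between diets was 0.16 ± 0.12 (adjusted p = 0.265), short of the threshold. Its diet difference was -0.27 ± 0.08 (adjusted p = 0.00634) in wild type and -0.11 ± 0.09 (adjusted p = 0.275) in HCM, so the turn of direction by diet rests on the brighter probe set.

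On casein 4 of the 14 BMP and GDF ligands were higher in HCM and none lower: Bmp4, Gdf3, Bmp5 and Bmp7. That is 28.6% of them, beside 26.9% of all genes. Gdf3 differed by 0.24 ± 0.05 (adjusted p = 0.000516), Bmp5 by 0.21 ± 0.07 (adjusted p = 0.0115) and Bmp7 by 0.20 ± 0.05 (adjusted p = 0.0011), while on soy their values were -0.07, -0.15 and -0.03, none past the threshold. The set-blocked fit removed the casein call of Bmp5 (adjusted p = 0.109). The other probe set of Gdf3 went the opposite way on casein, at -0.34 ± 0.09 (adjusted p = 0.00199), so the direction of Gdf3 depends on the probe set. On soy 3 of the 14 were lower in HCM and none higher: Gdf9, Bmp4 and Gdf10, or 21.4% beside 12.7% of all genes. Gdf10 differed by -0.19 ± 0.07 (adjusted p = 0.0369). Bmp10, a ligand of the developing heart muscle and the atrium, and Bmp2, needed for valve formation, did not pass the threshold on either diet, with values of -0.16 and 0.09 for Bmp10 and -0.05 and 0.11 for Bmp2, on soy and casein. Gdf15, a stress-induced relative, was not analysed here.

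Gdf9, known as a ligand of the oocyte, had the largest soy difference of the family. Its probe set read 6.72, 7.12, 6.90 and 7.11 in males and 6.90, 6.80, 6.89 and 6.97 in females in soy wild type. It read 6.80, 6.38 and 6.75 in males and 6.45, 6.69 and 6.56 in females in soy HCM. The HCM arrays were the lower ones, and the ranges overlapped by a narrow margin (highest HCM array 6.80, lowest wild-type array 6.72). The difference was -0.32 ± 0.08 (adjusted p = 0.00384). On casein the wild-type values were 6.55, 6.71, 6.58 and 6.37 in males and 6.76, 6.65, 6.54 and 6.54 in females. In casein HCM they were 6.63, 6.29, 6.28 and 6.29 in males and 6.56, 6.57, 6.42 and 6.34 in females. That difference, -0.17 ± 0.07 (adjusted p = 0.0595), did not pass the threshold. Gdf9 was also lower on casein than on soy (-0.26 ± 0.05 (adjusted p = 0.000117)).

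The 3 TGF-beta ligands, the main fibrogenic signals of the family, each passed the threshold on a single diet, where they were higher in HCM. Tgfb1 differed by 0.19 ± 0.07 (adjusted p = 0.0197) on casein and by -0.09 ± 0.07 (adjusted p = 0.375) on soy. Tgfb3 differed by 0.24 ± 0.07 (adjusted p = 0.00352) on casein and by 0.07 ± 0.07 (adjusted p = 0.499) on soy, and its other probe set gave 0.20 ± 0.10 (adjusted p = 0.113) on casein. Tgfb2 differed by 0.20 ± 0.06 (adjusted p = 0.0236) on soy and by 0.11 ± 0.06 (adjusted p = 0.109) on casein. Its mean log2 signal was 4.23, among the dimmest 40% of genes on the array. The change of effect between diets passed the threshold for Tgfb1 alone among the 3, at 0.28 ± 0.10 (adjusted p = 0.0215). Averaged over the diets, Tgfb2 (0.15) and Tgfb3 (0.16) passed, with adjusted p of 0.00644 and 0.0148, and Tgfb1 did not (adjusted p = 0.458). None of these calls passed in the set-blocked fit. Its adjusted p was 0.141 for Tgfb1 and 0.0614 for Tgfb3 on casein, 0.269 for Tgfb2 on soy, 0.118 and 0.173 for the mean effects of Tgfb2 and Tgfb3, and 0.168 for the change of Tgfb1 between diets.

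Of the 4 activin and inhibin subunits, Inhbc alone was past the threshold on casein and none was on soy. Inhbc encodes the beta C subunit, best known from liver. The log2 values of Inhbc in casein wild type were 6.65, 6.86, 6.65 and 6.40 in males and 6.83, 6.62, 6.79 and 6.70 in females. In casein HCM they were 6.56, 6.30, 6.33 and 6.36 in males and 6.34, 6.47, 6.41 and 6.58 in females. The HCM arrays were lower, with overlapping ranges, and the difference was -0.27 ± 0.08 (adjusted p = 0.00434). In soy wild type Inhbc read 6.86, 7.49, 7.01 and 7.07 in males and 7.06, 6.84, 7.02 and 6.92 in females. In soy HCM it read 7.05, 6.98 and 6.65 in males and 6.82, 6.78 and 6.77 in females. Here the difference was -0.19 ± 0.08 (adjusted p = 0.0833), and the mean over both diets was -0.23 ± 0.06 (adjusted p = 0.0021). The mean HCM effect also passed for Inhbb, the activin beta B subunit, at 0.10 ± 0.04 (adjusted p = 0.0263). The set-blocked fit removed the casein call of Inhbc (adjusted p = 0.0684) and the mean effects of Inhbc and Inhbb (0.0696 and 0.221).

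Among the latent TGF-beta binding proteins, Ltbp3 and Ltbp4 were lower in HCM on casein, and none of the 4 passed on soy. Ltbp3 is needed to secrete and store latent TGF-beta. In casein wild type Ltbp3 read 8.06, 8.20, 8.26 and 8.02 in males and 8.41, 8.38, 8.43 and 8.26 in females. In casein HCM it read 7.96, 7.77, 7.80 and 7.78 in males and 8.03, 8.04, 7.70 and 7.83 in females. The ranges touched at their edges (highest HCM array 8.04, lowest wild-type array 8.02). The difference was -0.39 ± 0.06 (adjusted p = 3.53e-06). On soy, wild-type arrays of Ltbp3 read 8.52, 8.74, 8.54 and 8.72 in males and 8.36, 8.50, 8.55 and 8.63 in females. In soy HCM it read 8.78, 8.51 and 8.63 in males and 8.44, 8.54 and 8.49 in females. The soy groups lay over each other, at a difference of -0.01 ± 0.06 (adjusted p = 0.957), and the HCM effect differed between diets by -0.38 ± 0.09 (adjusted p = 0.000672). Ltbp4, which binds latent TGF-beta to elastic fibres, differed by -0.28 ± 0.07 (adjusted p = 0.00104) on casein and 0.14 ± 0.07 (adjusted p = 0.153) on soy, with a change between diets of -0.43 ± 0.10 (adjusted p = 0.00102). Bmp1, the protease that trims procollagen, differed by -0.13 ± 0.05 (adjusted p = 0.0458) on casein; its other probe set gave -0.19 ± 0.08 (adjusted p = 0.0515). Bmp1 fell short of the threshold in 16 of the 30 fits that left out 1 array and in the set-blocked fit (adjusted p = 0.223).

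The largest HCM gain of the family was in a type I receptor. Bmpr1a, a type I receptor for BMP ligands, was the member that was higher in HCM on both diets. In soy wild type Bmpr1a read 5.68, 5.27, 5.61 and 5.52 in males and 5.61, 5.57, 5.74 and 5.80 in females. In soy HCM it read 5.70, 5.91 and 6.00 in males and 5.98, 5.64 and 6.20 in females. The HCM arrays were the higher ones with overlapping ranges, and the difference was 0.31 ± 0.09 (adjusted p = 0.0197). In casein wild type it read 5.76, 5.02, 5.44 and 5.53 in males and 5.36, 5.41, 5.41 and 5.53 in females. In casein HCM it read 5.79, 5.98, 6.08 and 6.00 in males and 5.57, 5.83, 5.91 and 5.62 in females. The casein difference was 0.42 ± 0.09 (adjusted p = 0.000283), and the mean over both diets 0.36 ± 0.06 (adjusted p = 9.7e-05), the largest mean HCM effect of the family. Bmpr1a, Bmpr1b and Tgfbr1 are among the dimmest 40% of genes on the array. Bmpr1b, a close relative of Bmpr1a, was higher on casein (0.26 ± 0.07 (adjusted p = 0.00224)) and not on soy (-0.07, adjusted p = 0.52). The type I receptors Acvr1, Acvr1b and Tgfbr1 did not pass on either diet, and Tgfbr1 had 0.09 ± 0.09 (adjusted p = 0.457) on soy and 0.11 ± 0.08 (adjusted p = 0.257) on casein.

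Acvrl1 is the type I receptor of endothelium for BMP ligands in the blood. Its full set of values, and those of Smad6, Id1 and Id3 below, were singled out after their differences were seen. In soy wild type Acvrl1 read 8.60, 8.51, 8.59 and 8.74 in males and 8.64, 8.62, 8.54 and 8.59 in females. In soy HCM it read 8.37, 8.23 and 8.26 in males and 8.44, 8.29 and 8.31 in females. All HCM arrays were below all wild-type arrays, and the difference was -0.29 ± 0.06 (adjusted p = 0.00117). In casein wild type it read 8.64, 8.90, 8.63 and 8.51 in males and 8.81, 8.71, 8.56 and 8.55 in females. In casein HCM it read 8.98, 9.13, 8.89 and 8.88 in males and 8.95, 8.98, 9.01 and 9.12 in females. The HCM arrays were higher, and 2 of the 8 fell below the highest wild-type array. The casein difference was 0.33 ± 0.06 (adjusted p = 1.78e-05), and the change between diets 0.62 ± 0.08 (adjusted p = 8.83e-07). Acvrl1 had 2 other probe sets made from the same transcript record, and they disagreed with each other. For HCM on casein the first gave -0.29 ± 0.06 (adjusted p = 0.00039) and the second 0.41 ± 0.08 (adjusted p = 9.16e-05). On soy they gave -0.09 ± 0.07 (adjusted p = 0.32) and 0.00 ± 0.09 (adjusted p = 0.994). The change between diets was -0.19 ± 0.09 (adjusted p = 0.085) at the first and 0.41 ± 0.12 (adjusted p = 0.00499) at the second. The direction on casein is thus that of 2 of 3 probe sets. Neither other probe set passed on soy, so the turn of direction between diets rests on the probe set used. Among 10 endothelial markers 2 were higher and 4 lower in HCM on casein (60% called, against 49.6% of all genes). On soy 3 were higher and 1 lower (40%, against 25%). The mean log2 of the list spanned 7.71 to 7.95 on casein HCM arrays and 7.86 to 8.001 on casein wild-type arrays. It spanned 7.82 to 7.95 on soy HCM arrays and 7.34 to 7.97 on soy wild-type arrays. The part of endothelial content in the Acvrl1 differences was not tested.

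Of the 5 type II and III receptors, Acvr2b and Tgfbr3 passed the threshold on casein and none on soy. Acvr2b, a type II receptor for activins and myostatin, read 7.54, 7.61, 7.51 and 7.62 in males and 7.57, 7.60, 7.58 and 7.47 in females in casein wild type. In casein HCM it read 7.44, 7.11, 7.09 and 7.09 in males and 7.05, 7.05, 7.18 and 7.19 in females. All HCM arrays were below all wild-type arrays, with the first male array, at 7.44, close to the lowest wild-type array, at 7.47. The difference was -0.41 ± 0.05 (adjusted p = 4.39e-07), the smallest adjusted p of any member in this comparison. Soy wild-type values of Acvr2b were 7.88, 7.80, 7.74 and 7.85 in males and 7.66, 7.68, 7.67 and 7.98 in females. Its soy HCM values were 7.76, 7.61 and 7.62 in males and 7.73, 7.70 and 7.66 in females. The soy difference was -0.10 ± 0.06 (adjusted p = 0.205), and the change between diets -0.31 ± 0.08 (adjusted p = 0.00228), with a set-blocked adjusted p of 0.0597 for the change. Tgfbr3, betaglycan, which presents TGF-beta to its receptors, was higher in HCM on casein (0.29 ± 0.05 (adjusted p = 7.15e-05)) and had 0.13 ± 0.06 (adjusted p = 0.0968) on soy. Tgfbr2, the TGF-beta type II receptor, did not pass on either diet, at 0.06 ± 0.06 (adjusted p = 0.48) on soy and -0.05 ± 0.05 (adjusted p = 0.451) on casein. Its mean log2 signal was 3.71, among the dimmest genes on the array. Acvr2a and Bmpr2 did not pass on either diet either, although the other probe set of Acvr2a was higher in HCM on soy, at 0.31 ± 0.06 (adjusted p = 0.000639). The casein value of Bmpr2 depended on the wild-type set, as given below.

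The Smads of the BMP branch were Smad1 and Smad5. Smad1 was higher in HCM on casein (0.32 ± 0.11 (adjusted p = 0.0139)) and had 0.16 ± 0.11 (adjusted p = 0.313) on soy; its other probe set gave 0.66 ± 0.13 (adjusted p = 8.24e-05) on casein. Smad5 was higher in HCM on soy (0.20 ± 0.06 (adjusted p = 0.011)) and lower on casein (-0.14 ± 0.05 (adjusted p = 0.0258)). Among the Smads of the TGF-beta branch, Smad2 differed by 0.20 ± 0.08 (adjusted p = 0.0401) on casein and -0.06 ± 0.09 (adjusted p = 0.667) on soy. Smad3 differed by 0.16 ± 0.06 (adjusted p = 0.0407) on soy and -0.11 ± 0.05 (adjusted p = 0.0952) on casein. Smad3 and Smad5 are among the dimmest 40% of genes on the array. Smad4, the partner shared by both branches, was lower in HCM on casein (-0.22 ± 0.08 (adjusted p = 0.0237)) and had 0.22 ± 0.09 (adjusted p = 0.0605) on soy. The change between diets passed for Smad3 (-0.27 ± 0.08 (adjusted p = 0.00656)), Smad4 (-0.45 ± 0.12 (adjusted p = 0.00331)) and Smad5 (-0.34 ± 0.08 (adjusted p = 0.000688)). In the set-blocked fit the change stayed past the threshold for Smad5 and not for Smad3 or Smad4 (adjusted p = 0.0988 and 0.0739). That fit removed all casein calls of these Smads, with adjusted p of 0.127 for Smad1, 0.213 for Smad2, 0.165 for Smad4 and 0.161 for Smad5, and the soy calls of Smad3 and Smad5 (0.326 and 0.195). Smad7, the inhibitor of the TGF-beta branch, did not pass on either diet, at -0.13 ± 0.08 (adjusted p = 0.222) and 0.08 ± 0.07 (adjusted p = 0.367).

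Smad6, the inhibitor of the BMP branch, differed in the same directions as Bmp4 at the probe sets used. Soy wild-type values of Smad6 were 7.08, 6.88, 7.15 and 7.20 in males and 7.24, 7.39, 7.05 and 7.12 in females. The soy HCM values were 6.73, 7.04 and 7.04 in males and 6.88, 6.83 and 7.04 in females. The ranges overlapped, and the difference was -0.21 ± 0.07 (adjusted p = 0.0234). In casein wild type it read 6.98, 6.96, 6.75 and 6.82 in males and 7.03, 7.04, 6.84 and 7.11 in females. The casein HCM values were 7.11, 7.20, 7.12 and 7.35 in males and 7.28, 7.30, 7.43 and 7.34 in females. On casein the ranges met at a single value (lowest HCM array 7.11, highest wild-type array 7.11), and the difference was 0.33 ± 0.06 (adjusted p = 9.54e-05). The change between diets was 0.54 ± 0.09 (adjusted p = 3.04e-05).

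Leaving out single arrays took some of these calls away, all with the same sign. On soy, Bmpr1a lost its call without the third male or the third female HCM array (adjusted p up to 0.0828). Smad6 lost it without the first male, the first female or the second female HCM array or the second female wild-type array (up to 0.0843), and Tgfb2 without the third male, the first female or the third female HCM array or the first female wild-type array (up to 0.0675). Gdf10 lost its soy call in 8 of the 30 fits and Smad3 in 9. On casein, Smad2 lost its call in 10 of the 30 fits and Smad4, Smad5 and Tgfb1 in 3 each, whereas Bmp4, Acvrl1, Smad6, Bmpr1a, Acvr2b and Ltbp3 kept theirs in all 30.

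**Figure D3:**
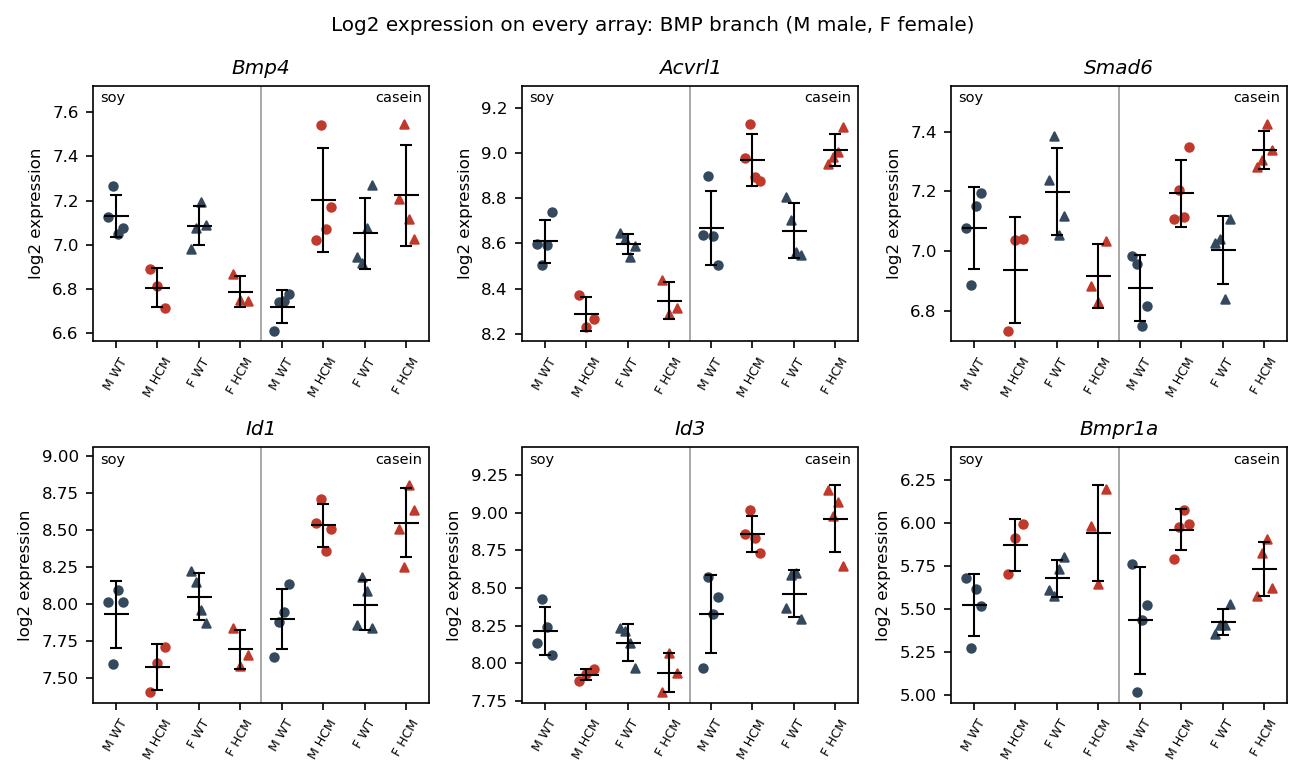
Log2 expression of Bmp4, Acvrl1, Smad6, Id1, Id3 and Bmpr1a on every array, a panel per gene and a column per group; circles are male and triangles female arrays, blue is wild type and red HCM, and the horizontal line with its error bar is the group mean ± SD. In the first 5 panels the soy HCM means lie below soy wild type and the casein HCM means above casein wild type, whereas Bmpr1a is higher in HCM on both diets.

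The Id genes, immediate targets of BMP signalling that hold back differentiation, are not members and were measured as part of a list of 102 further pathway genes, 80 of them on the array. Id1 read 8.01, 7.60, 8.09 and 8.02 in males and 8.22, 8.15, 7.96 and 7.87 in females in soy wild type. The soy HCM values were 7.40, 7.60 and 7.71 in males and 7.84, 7.58 and 7.66 in females. These ranges overlapped, at a difference of -0.36 ± 0.09 (adjusted p = 0.00692). In casein wild type Id1 read 7.64, 7.88, 7.95 and 8.13 in males and 7.86, 8.18, 8.09 and 7.84 in females. In casein HCM it read 8.55, 8.71, 8.36 and 8.51 in males and 8.51, 8.25, 8.80 and 8.64 in females. All casein HCM arrays were above all casein wild-type arrays, at a difference of 0.60 ± 0.09 (adjusted p = 2.49e-06).

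Id3 had -0.25 ± 0.09 (adjusted p = 0.0395) on soy. On casein Id3 read 7.96, 8.57, 8.33 and 8.44 in males and 8.37, 8.59, 8.60 and 8.29 in females in wild type. It read 8.86, 9.02, 8.83 and 8.73 in males and 9.15, 8.98, 9.07 and 8.64 in females in HCM. Again no casein HCM array of Id3 fell within the wild-type range, and the difference was 0.52 ± 0.08 (adjusted p = 6.37e-06). Id2 was higher on casein (0.38 ± 0.11 (adjusted p = 0.00591)) and Id4 lower (-0.28 ± 0.06 (adjusted p = 0.000555)), and neither passed on soy (-0.09 and 0.05). The set-blocked fit removed the soy calls of Id1 and Id3 (adjusted p = 0.173 and 0.327) and the casein call of Id2 (0.0766). The change of the HCM effect between diets was 0.95 ± 0.13 (adjusted p = 1.13e-06) for Id1 and 0.76 ± 0.12 (adjusted p = 8.61e-06) for Id3.

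The set-blocked fit of these diet-dependent changes widened their errors and cannot tell them apart from differences between sets. With the set as a random block, 6 of the 15 members whose HCM effect differed between diets passed: Acvrl1, Bmp4, Ltbp3, Ltbp4, Smad5 and Smad6, with adjusted p of 0.000389, 0.00439, 0.0322, 0.0403, 0.0292 and 0.00524. Id1 and Id3 passed as well, at 0.000741 and 0.00275. In that fit 11 of the 21 members called for HCM on casein passed and none of the 9 called on soy. The soy value with the smallest adjusted p was that of Acvrl1 (0.0682), with Bmp4 at 0.146. The 15 members, 9 with a higher effect on casein and 6 with a lower one, were 31.9% of the family, against 45.1% of all genes (25% with a higher effect and 20.1% with a lower one).

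Against each set of casein wild-type arrays alone, the casein HCM difference of Bmp4 was 0.41 against set A and 0.25 against set B, all past the threshold. For Acvrl1 it was 0.23 against set A and 0.43 against set B, and for Smad6 0.27 against set A and 0.39 against set B. Acvr2b gave -0.43 against set A and -0.39 against set B, Ltbp3 -0.40 against set A and -0.38 against set B and Bmpr1a 0.46 against set A and 0.37 against set B. Each of these kept its side of the threshold with either set, as did Bmp7, Gdf3, Ltbp4 and Tgfbr3, 10 of the 21 members called on casein. The other 11 lost the call with at least 1 set. Against set B alone 7 fell short: Tgfb1 (0.11, adjusted p = 0.27), Smad5 (-0.08, adjusted p = 0.306), Smad4 (-0.21, adjusted p = 0.0951), Smad1 (0.29, adjusted p = 0.0534), Inhbc (-0.22, adjusted p = 0.0552), Tgfb3 (0.20, adjusted p = 0.0542) and Tgfb1i1 (-0.10, adjusted p = 0.174). Against set A alone Bmp5 (0.14, adjusted p = 0.17) and Bmpr1b (0.16, adjusted p = 0.0967) fell short, and Bmp1 and Smad2 did so against either set. Some members not called on casein passed against 1 set. With set B these were Bmpr2 (0.34), Bmp6 (0.26), Inhbe (0.26), Tgfbr1 (0.25) and Smad7 (0.24). With set A they were Gdf9 (-0.25) and Tgfbi (0.26). Their adjusted p ran from 0.000149 to 0.0274. Bmpr2 was -0.13 against set A (adjusted p = 0.156). The HCM effect on Bmpr2 changed between diets by -0.26 with set A (adjusted p = 0.0342) and 0.21 with set B (adjusted p = 0.0491).

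The 80 further pathway genes on the array comprised antagonists, activators of the latent complex, other ligands, Smad regulators and response genes. On soy 14 were higher and 7 lower in HCM (26.2% called, against 25% of all genes), and on casein 18 higher and 16 lower (42.5%, against 49.6%), so these counts lie near or below the background. The Smad regulators and partners were 7 higher and none lower of 22 on soy (31.8% higher, against 12.3% of all genes). On casein they were 4 higher and 4 lower (36.4% called). The soy direction depends on the probe set for Zeb1 and Map3k7, at 0.25 and 0.27 where used. Another probe set gave -0.36 ± 0.09 (adjusted p = 0.00636) for Zeb1 and -0.15 ± 0.05 (adjusted p = 0.0311) for Map3k7. Those of Dab2 stayed positive, at 0.27 and 0.23. Response genes were 4 higher and 4 lower of 28 on soy (28.6% called, against 25% of all genes). On casein they were 10 higher and 5 lower (53.6%, against 49.6%). On soy the largest differences were those of Sparc, a collagen-binding matrix protein (0.55 ± 0.17 (adjusted p = 0.0198)), Itgb1 and Itgav, integrin subunits that activate latent TGF-beta (0.53 ± 0.13 (adjusted p = 0.00384) and 0.44 ± 0.13 (adjusted p = 0.0117)), and Nedd4, a ubiquitin ligase (0.51 ± 0.09 (adjusted p = 0.000161)). In the set-blocked fit Nedd4 stayed past the threshold (adjusted p = 0.0342), and Sparc (0.251), Itgb1 (0.116) and Itgav (0.213) did not. Of other probe sets on soy, that of Itgb1 gave 0.38, that of Nedd4 0.18 and those of Itgav 0.49 and 0.07.

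On casein the largest pathway difference was that of Ccn2, connective tissue growth factor, a classic TGF-beta target, at 1.71 ± 0.14 (adjusted p = 1.74e-10). Tagln, a smooth muscle and myofibroblast protein, followed at 0.92 ± 0.07 (adjusted p = 2.33e-11), then Postn, periostin of activated fibroblasts, at 0.71 ± 0.19 (adjusted p = 0.00319). Eng, endoglin, the endothelial co-receptor of Acvrl1, was lower (-0.68 ± 0.08 (adjusted p = 4.56e-08)). The change of the HCM effect between diets was largest for Ccn2 (2.04 ± 0.21 (adjusted p = 1.7e-08)), Tagln (1.04 ± 0.10 (adjusted p = 5.49e-09)), Id1 and Acta2, smooth muscle actin (0.84 ± 0.27 (adjusted p = 0.0132)). In the set-blocked fit Postn on casein had an adjusted p of 0.0605 and the change of Acta2 0.14; Ccn2, Tagln and Eng on casein stayed past the threshold.

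Markers of cell types were counted in the same comparisons. Of all genes 26.9% were higher and 22.7% lower in HCM on casein (49.6% called), and 12.3% and 12.7% on soy (25% called). Of 9 smooth muscle and pericyte markers 5 were higher and none lower in casein HCM (55.6% called). Their mean log2 spanned 7.75 to 8.02 on casein HCM arrays against 7.34 to 7.66 on casein wild-type arrays. Of 12 fibroblast markers 7 were higher and 2 lower (75% called), with means of 8.66 to 9.18 in females and 8.69 to 8.88 in males. In casein wild type these means were 8.64 to 8.76 in females and 8.34 to 8.56 in males. Macrophage markers were 4 higher and 2 lower of 9 (66.7% called), and atrial markers 3 higher and 1 lower of 7 (57.1%). The atrial list includes Bmp10, which is also a member. On soy the smooth muscle markers were 1 higher and 1 lower (22.2% called), and the fibroblast markers 1 higher and 3 lower (33.3%). All 8 cardiomyocyte markers were higher in HCM on soy, and 4 were higher and 1 lower on casein (62.5% called). Their mean log2 spanned 12.2 to 12.4 on soy HCM arrays, 11.6 to 12.1 on soy wild-type arrays, 12.4 to 12.6 on casein HCM arrays and 12.3 to 12.5 on casein wild-type arrays. Tagln, Acta2, Eng, Postn, Dcn, Col1a1, Col1a2 and Col3a1 stand on both a marker and the pathway list. The part of these cells in the member differences was not tested.

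Diet was compared next, casein minus soy, over both genotypes and sexes. Of 47 members, 26 differed (55.3%), 6 higher and 20 lower on casein, against 62.9% of all genes. Over all genes 30.9% were higher and 32% lower. The balance within the family depends on scaling: with each array centred on its median, the split over all members was 11 higher and 14 lower, since centring moved the median diet difference of all genes from -0.004 to 0.055. The largest difference was that of Ltbp3 (-0.51 ± 0.04 (adjusted p = 5.03e-11)), followed by Inhbc (-0.39 ± 0.06 (adjusted p = 8.73e-07)) and Acvr2b (-0.38 ± 0.04 (adjusted p = 3.71e-09)), all lower on casein. Tgfb1 (0.38 ± 0.05 (adjusted p = 1.45e-07)), Acvrl1 (0.37 ± 0.04 (adjusted p = 1.01e-08)) and Inhbe, the beta E subunit (0.35 ± 0.06 (adjusted p = 2.4e-05)), were higher on casein. The other probe sets of Acvrl1 gave -0.40 and 0.35 for diet, both past the threshold in opposite directions.

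From the values given above, the casein HCM arrays of Ltbp3, Acvr2b and Inhbc all lay below the soy HCM arrays. In wild type this held for Acvr2b (casein 7.47 to 7.62, soy 7.66 to 7.98) but not for Ltbp3 (8.02 to 8.43 against 8.36 to 8.74) or Inhbc (6.40 to 6.86 against 6.85 to 7.49). The diet difference of Ltbp3 was -0.32 in wild type and -0.70 in HCM, and that of Acvr2b -0.22 and -0.53, each past the threshold. Tgfb1, whose values on every array were looked up after its difference was seen, read 7.63, 7.61 and 7.68 in males and 7.36, 7.67 and 7.63 in females in soy HCM. In casein HCM Tgfb1 read 8.16, 8.35, 7.97 and 8.12 in males and 7.95, 8.02, 8.23 and 8.09 in females. All casein HCM arrays of Tgfb1 were above all soy HCM arrays. In soy wild type it read 7.80, 7.41, 7.77 and 7.74 in males and 7.58, 7.84, 7.71 and 7.64 in females. In casein wild type it read 7.82, 7.92, 8.16 and 8.04 in males and 7.82, 7.82, 7.93 and 7.87 in females, which met the soy range at its edge. The diet difference of Tgfb1 was 0.24 ± 0.07 (adjusted p = 0.00425) in wild type and 0.51 ± 0.07 (adjusted p = 5.4e-07) in HCM.

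**Figure D4:**
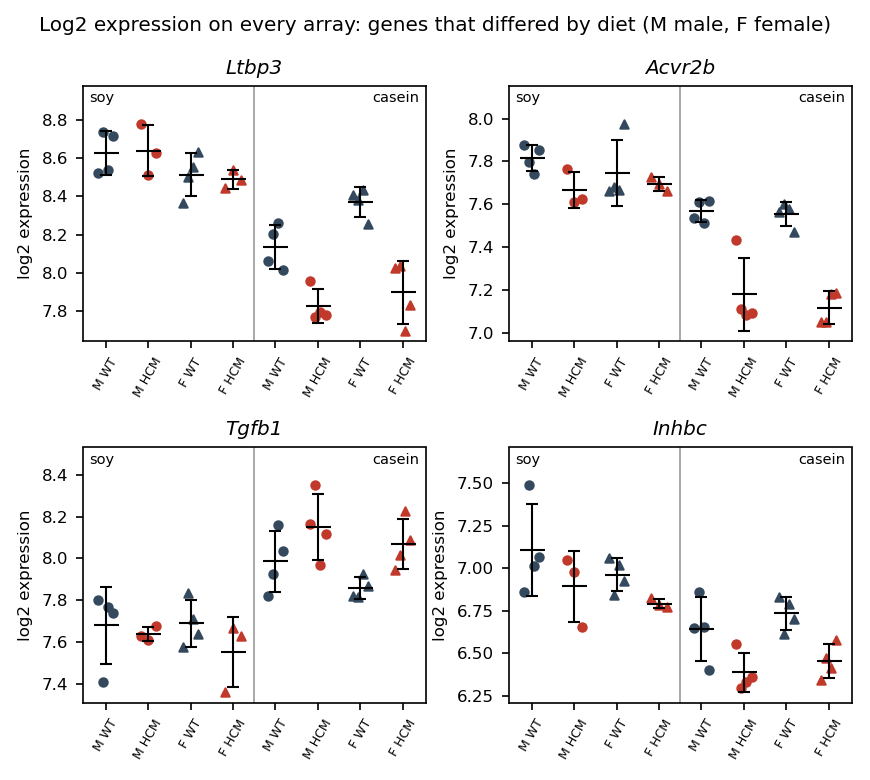
Log2 expression of Ltbp3, Acvr2b, Tgfb1 and Inhbc on every array, a panel per gene and a column per group; circles are male and triangles female arrays, blue is wild type and red HCM, and lines with error bars are group means ± SD. The casein HCM arrays lie below all soy HCM arrays for Ltbp3, Acvr2b and Inhbc and above all of them for Tgfb1.

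Smaller diet differences ran through every role. Lower on casein were the receptors Acvr2a (-0.31 ± 0.08 (adjusted p = 0.00109)) and Tgfbr1 (-0.28 ± 0.06 (adjusted p = 0.000137)), the inhibitor Smad7 (-0.27 ± 0.05 (adjusted p = 0.000103)), Ltbp2 (-0.23 ± 0.05 (adjusted p = 8.36e-05)), Bmp1 (-0.16 ± 0.04 (adjusted p = 0.00061)), Tgfb1i1 (-0.16 ± 0.04 (adjusted p = 0.00032)) and the ligand Bmp15, known from the oocyte (-0.23 ± 0.03 (adjusted p = 4.67e-07)). Ltbp4 was higher on casein (0.25 ± 0.05 (adjusted p = 0.000104)), but its difference turned to -0.04 once quantile normalization was added. The other probe sets gave -0.24 for Acvr2a and -0.43 for Bmp1. Betaglycan (Tgfbr3, -0.13 ± 0.04 (adjusted p = 0.00481)) and Smad5 (-0.16 ± 0.04 (adjusted p = 0.000734)) were lower, and no type II or III receptor was higher. Some of these members also differed between casein wild-type sets A and B, which share a diet. Set A was higher than set B by 0.31 for Smad7, 0.29 for Tgfbr1 and 0.25 for Tgfbr3 (adjusted p = 0.0206, 0.0266 and 0.00951).

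The diet difference was called in 17 members in wild type (36.2%, against 47% of all genes) and in 27 in HCM (57.4%, against 62.1%). These contrasts share no arrays. In both of them 2 members were higher on casein (4.26%, against 12.4% of all genes) and 8 lower (17%, against 13.1%). At the probe sets used, Bmp4 and Smad6 were lower on casein in wild type and higher on casein in HCM; such opposite calls made up 4.26% of the members and 6.69% of all genes, and the second probe set of Bmp4 did not turn. Of the 80 further pathway genes 24 were higher and 21 lower on casein (56.2%, against 62.9% of all genes), with Sparc (0.92 ± 0.12 (adjusted p = 9.14e-08)), Tagln (0.63 ± 0.05 (adjusted p = 1.53e-11)), Col1a2 (-0.63 ± 0.06 (adjusted p = 2.95e-10)) and Col3a1 (0.61 ± 0.07 (adjusted p = 3.27e-08)), the last 2 being fibrillar collagen chains, the largest. Other probe sets did not bear out the collagens, at 0.02 for Col1a2 and -0.13 and 0.12 for Col3a1. Acvrl1 did not pass for diet within wild type (0.06 ± 0.06 (adjusted p = 0.4)). Of 9 smooth muscle markers 7 were higher and 1 lower on casein, all 8 cardiomyocyte markers were higher, and of 10 endothelial markers 6 were higher and 3 lower. The shares over all genes were 30.9% higher and 32% lower on casein. The part of cell content was not tested.

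**Figure D5:**
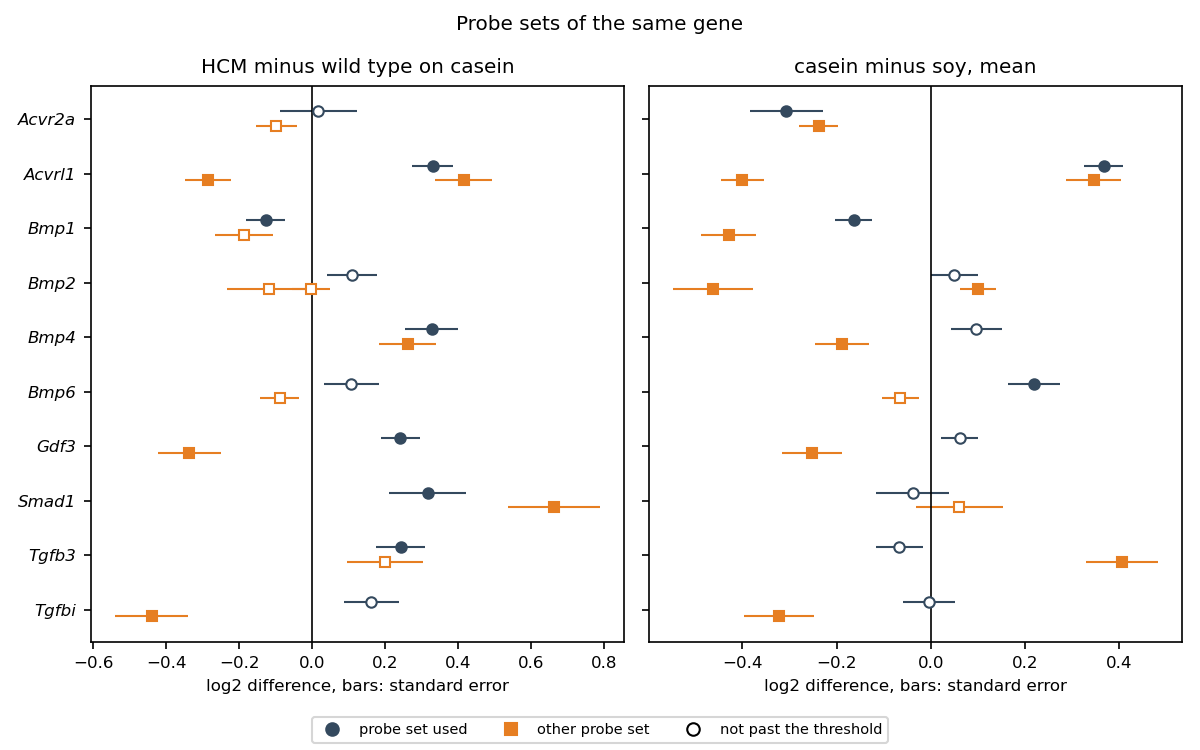
For the 10 members with several probe sets, the log2 difference of HCM minus wild type on casein (left) and of casein minus soy (right), with the probe set used as circles and the others as squares; filled symbols passed the threshold and bars are standard errors. Acvrl1 has filled symbols on both sides of zero in both panels, and Gdf3 does so on the left.

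Sex was balanced over sets and gave no member past the threshold. No member differed between females and males in the limma fit (0%, against 0.267% of all genes, 22 genes), and 3 had an unadjusted p under 0.05: Bmp1, Ltbp2 and Ltbp4. Ltbp4 was nearest, higher in females by 0.20 ± 0.05 (adjusted p = 0.0953). Without the fourth female soy wild-type array, 1 member passed. The sex labels were borne out by Xist, at 4.73 to 7.17 in females and 4.19 to 4.47 in males, and by the Y-linked Eif2s3y, at 4.002 to 4.65 and 4.84 to 6.95. No member passed for a difference of the HCM effect between the sexes (0% of all genes; 1 member, Ltbp4, had an unadjusted p under 0.05, and the smallest adjusted p of a member was 0.902). No member passed for a difference of the diet effect between the sexes (0% of all genes; 4 members, Acvr2a, Bmp15, Bmp2 and Ltbp3, had an unadjusted p under 0.05, with a smallest adjusted p of 0.203). A p above the threshold does not show that the sexes were alike.

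Over all these comparisons and their parts within a genotype or diet, 38 of the 47 members (80.9%, against 87.3% of all genes) passed in at least 1 with all arrays fitted. The 9 that passed in none were the ligands Bmp2, Bmp10, Gdf5 and Gdf11, the receptors Acvr1, Acvr1b, Bmpr2 and Tgfbr2, and Ltbp1. By mean signal 23 of the 47 lie among the dimmest 40% of genes. They include Bmp5, Bmpr1a, Bmpr1b, Gdf10, Smad3, Smad5 and Tgfb2, each called for HCM on a diet, and Tgfbr1 and Tgfbr2. No detection calls were made here, so whether these transcripts were above background was not tested.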

How the data were processed

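Each probe set's deposited value is a log2 intensity that the authors obtained by RMA in Affymetrix Expression Console, as the submitters' processing notes name these tools without versions. The method usually corrects background, quantile-normalizes and summarises probes, which can compress differences of dim genes. Of 12488 probe sets 10833 had 1 symbol in the platform annotation, 396 had several and 66 were Affymetrix controls. All 47 members were found in the RefSeq gene table by Entrez number.

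One fit in R 4.3.3 with limma 3.58.1 (8 group means, 30 arrays, 8251 genes, 22 residual and 6.16 prior degrees of freedom) gave every contrast, two-sided, with Benjamini-Hochberg adjustment over all genes and a threshold of 0.05. Probe sets other than the one used were adjusted over all probe sets. The set block used duplicateCorrelation (statmod 1.5.0, consensus correlation 0.167). The fit was checked on simulated data with independent noise and no difference between sets, so that check does not bear on the sets. P-values measure the spread between pools; nothing more is known of their independence.

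The members, gene lists and markers were chosen with earlier results of these data known. The rule gave every array's value for up to 3 members per comparison with the largest change past the threshold, and a change with its error for up to 12 and for the leading member of each role. Tgfb1 to Tgfb3, Tgfbr1, Tgfbr2, Smad2, Smad3, Smad4 and Smad7 were always included for HCM, and up to 4 further pathway genes per comparison. Bmp7, Bmp10, Bmp2, Id2 and Id4 lie outside it and were named after their values were seen. Alternatives covered probe sets, dim genes, scaling, blocks, weights, sets and single arrays.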

Additional observations from a re-analysis of the deposited data

Results flagged for a closer look

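In the male casein HCM group a lone array stood above the other 3 for each of 3 members: Gdf9 at 6.635, Acvr2b at 7.437 and Ltbp3 at 7.957, on the log2 scale. It was the first replicate each time. In the female soy wild-type group the fourth array stood above the others for Acvr2b, at 7.976. The test for a lone array was run on 36 groups of 4 arrays (6 members), and chance gives such an array in about 1 in 20 groups.

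The difference of the HCM effect between casein and soy passed the limma threshold for 15 members. It was positive for Bmp4 (0.64), Acvrl1 (0.62), Smad6 (0.54), Bmp5 (0.36), Bmpr1b (0.32), Tgfbi (0.32), Gdf3 (0.31), Tgfb1 (0.28) and Bmp7 (0.24). It was negative for Smad4 (-0.45), Ltbp4 (-0.43), Ltbp3 (-0.38), Smad5 (-0.34), Acvr2b (-0.31) and Smad3 (-0.27). Tgfbi, a matrix protein induced by TGF-beta, passed on neither diet by itself, with -0.15 on soy and 0.16 on casein, and its other probe set gave a difference between diets of -0.58.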

How the results depend on the processing

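Counts over all members of calls past the threshold were recomputed under each alternative. Leaving out the dimmest 40% of genes gave 4 for HCM on soy and 16 for diet. Array weights gave 18 for the mean HCM effect, 20 for HCM on soy and 1 for sex. The set as a random block gave 5 for the mean HCM effect, 0 for HCM on soy, 11 for HCM on casein and 6 for the change of the HCM effect between diets. Leaving out the casein HCM arrays gave 17 for diet, which is then the diet difference within wild type alone. Leaving out single arrays gave 10 to 13 for the mean HCM effect, 5 to 11 for HCM on soy, 18 to 22 on casein, 25 to 27 for diet, 0 to 1 for sex, 14 to 18 for the HCM by diet change, and 0 to 0 for both changes by sex. The highest count for the HCM by diet change, 18, came without the second male soy wild-type array. Other alternatives kept every count within 1.5 times.

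Signs turned in few cases. The diet difference of Ltbp4 was -0.0409 with quantile normalization, and without the casein HCM arrays that of Smad4 was 0.0667 and that of Smad5 0.0115. Read at another probe set, HCM on soy was 0.0011 for Acvrl1 and 0.10 for Bmp4, HCM on casein -0.29 for Acvrl1 and -0.34 for Gdf3, diet -0.40 for Acvrl1 and -0.0645 for Bmp6, and the HCM by diet change -0.19 for Acvrl1, -0.44 for Gdf3 and -0.58 for Tgfbi. The cause was not tested.

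With the replicate number as a block the counts were 11, 7, 21, 27, 0, 15, 0 and 0, in the order mean HCM, HCM on soy, HCM on casein, diet, sex, HCM by diet, HCM by sex and diet by sex; Gdf10 and Smad3 lost their soy calls (adjusted p = 0.0703 and 0.0654). The numbers do not pair the arrays: same-numbered arrays had correlations of their deviations of -0.567 to 0.625, with group medians of -0.059 to 0.01. The HCM by diet change cannot be computed without the casein HCM arrays.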

Other observations

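Within single sexes fewer members passed, each test resting on 3 or 4 arrays a group. For HCM on soy 1 member passed in males (2.13%, against 13.5% of all genes), Acvrl1 at -0.32, and 0 in females (against 4.11%). On casein 12 passed in males (25.5%, against 32.3%) and 10 in females (21.3%, against 33.6%). Acvrl1, Smad6, Acvr2b and Ltbp3 passed in both sexes on casein: Acvrl1 at 0.30 in males and 0.36 in females, Smad6 at 0.32 and 0.34, Acvr2b at -0.39 and -0.44, and Ltbp3 at -0.31 and -0.47. Bmpr1a passed in males (0.53) and had 0.31 in females (adjusted p = 0.0558). The diet difference in wild type passed for 16 members in males (against 40% of all genes) and 5 in females (against 25%). Whether the sexes differ in this within wild type alone was not tested. The diet by sex test, which averages both genotypes, passed for no member.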
